A study of Mus musculus with 24 samples.

Results

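The RNAs described here are 287 long noncoding RNAs (lncRNAs, transcripts longer than 200 bases without a long reading frame) whose genes lie inside an intron of another gene in the mouse. They were chosen by annotation: a probe was a member if the study's lists of lncRNAs detected in brain or in F9 cells, as far as those lists are held here, gave its relation to a neighbouring gene as intronic. Left out were probes that the study listed as tissue-specific, as testis-specific and present in the lines, as testis lncRNAs near coding genes or with a human homolog, or as RT-PCR targets, and those of Gas5 and the Snhg genes. This removed 1 of 288 probes. The 287 members stand among 60804 transcript probes on the array and among 1829 annotated probes of the 2 lists. In all, 191 members ran antisense to the host gene and 96 ran in its direction. They sat in 266 host genes, and 17 of these hosts held more than 1 member, 38 members together.

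Male ICR mice aged 8 weeks gave the 5 tissues of the study (brain, kidney, heart, testis and liver), frozen in liquid nitrogen, and 3 mouse lines grown in serum gave the rest (GC-1, GC-2, F9). Each of these 8 groups had 3 biological replicates, so 24 single-colour arrays were read. ICR is an outbred stock without a modified allele, and no group received a drug. F9 is an embryonal carcinoma line, grown without retinoic acid so that it would not differentiate, while GC-1 and GC-2 are immortalized lines named after spermatogonia and spermatocytes. Each line was harvested at passage 3 or 4, and the replicates of a line are cultures of 1 line.

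The lists held here run roughly in order of level and hold the upper part only, 1553 probes for brain and 1404 for F9. Members were therefore high in brain or F9 to begin with, and 215 of them stood in both lists, 29 in the brain list only and 43 in the F9 list only. The last members by row in the brain list were Gm6746 at a log2 level of 3.75 ± 0.18, Gm13541 at 3.64 ± 0.36 and 4930526A20Rik at 3.86 ± 0.08 (SD, n = 3). In the F9 list they were Gm12529 at 5.28 ± 0.25, Gm16222 at 5.26 ± 0.28 and Gm16139 at 5.66 ± 0.67. These were not in every case the lowest levels, as the rows did not follow them strictly. Probes just outside this edge were not analysed here. Brain and F9 values are a description below, and tests use heart, kidney, liver, testis, GC-1 and GC-2. A level is the log2 of the background-corrected intensity minus the 75th percentile of its array, so 0 is the brightness of a probe at that percentile, and levels are compared for 1 probe between groups and never between probes.

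Introns hold several kinds of RNA gene. Some are lncRNAs with a promoter of their own, often on the strand opposite to the host. Others are processed pseudogenes, copies of a messenger RNA that was reverse transcribed and inserted, which lack introns and stay close in sequence to the parent gene. A probe for such a copy may bind RNA of the parent or of other copies, and an array cannot separate a stable intronic transcript from unspliced host RNA in the same direction. In whole tissue, fewer cells that make an RNA and less RNA per cell cannot be told apart either.

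RefSeq names for the GRCm38 assembly were found for 162 members (56.4%). Of these, 146 were pseudogenes (137 of them not marked as transcribed), 14 were lncRNA genes and 2 were protein-coding. With so many unmatched, values by RefSeq type are given side by side as a description, with no test. A transcript whose span on the genome equalled its RNA length within 5 bases was counted as unspliced, and this held for 230 members (80.1%). The same share was 68.4% of intergenic, 41.9% of exonic antisense, 40.5% of bidirectional and 23.2% of exonic sense lncRNAs of the same lists. The median member was 464 bases long, with a range of 204 to 4745 bases. Most members (239) came from Ensembl. The hexamer AATAAA, the usual polyadenylation signal, was searched on the printed strand of the 60-base probes and occurred in 25 member probes (8.71%), against 8.88% of intergenic and 25.6% of exonic antisense probes.

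Many probes resembled one another. A run of at least 20 identical bases was shared with another annotated probe by 93 members, and 36 members fell into 14 sets that shared such a run among themselves. The array maker's table listed a second target for 19 members, which was a protein-coding messenger RNA for 7 of them, among these Gapdh for AK201904, Rps2 for AK205379 and Hsp90aa1 for AK217986. Neither feature applied to 185 members. The first 5 probes are printed here 5′ to 3′ as on the array. They belong to the members whose level varied least over heart, kidney, liver, testis, GC-1 and GC-2. Capitals mark the 15-base run common to all 5.
Gm12950: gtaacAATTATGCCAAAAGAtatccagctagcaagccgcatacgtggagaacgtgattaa
Gm15763: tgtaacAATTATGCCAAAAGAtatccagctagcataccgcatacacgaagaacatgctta
Gm17136: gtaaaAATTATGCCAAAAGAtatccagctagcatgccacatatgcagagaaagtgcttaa
Gm3835: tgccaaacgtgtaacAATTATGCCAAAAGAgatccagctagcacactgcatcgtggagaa
Gm15152: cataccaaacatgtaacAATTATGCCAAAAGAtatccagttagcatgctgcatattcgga

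A pair of pseudogenes named after Hspe1, which encodes the mitochondrial chaperonin 10, shared the 25 bases in capitals. Hspe1-ps6 lies at chr4:96072423-96072706 in the direction of Cyp2j13 and Hspe1-ps3 at chr5:25391607-25391884 antisense in Kmt2c. They are shown because the pair moved in parallel in the values below.
Hspe1-ps6: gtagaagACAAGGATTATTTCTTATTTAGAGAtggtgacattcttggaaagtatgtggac
Hspe1-ps3: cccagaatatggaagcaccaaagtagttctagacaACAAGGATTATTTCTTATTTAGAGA

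Gm17228, a pseudogene at chr17:63346919-63347410 in an intron of Fbxl17, shared 26 bases with an exonic probe of Actg1, the gene of gamma-actin. The 2 probes are shown because their levels parted in liver.
Gm17228: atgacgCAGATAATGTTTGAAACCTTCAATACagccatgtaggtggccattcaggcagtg
Actg1: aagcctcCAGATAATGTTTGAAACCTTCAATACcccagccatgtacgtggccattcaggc

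AK206280 and 4931430N09Rik are shown as members without a shared run that differed between groups. AK206280 had the largest heart difference of all members, and 4931430N09Rik was detected in brain and testis only. Capitals mark AATAAA in AK206280.
AK206280: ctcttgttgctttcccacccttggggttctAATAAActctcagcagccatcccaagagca
4931430N09Rik: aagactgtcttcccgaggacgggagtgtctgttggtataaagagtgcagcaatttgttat

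The arrays differed in brightness. The 75th percentile of intensity ran from 30.7 in liver replicate 2 to 384 in testis replicate 1, and the number of probes well above background ran from 18257 in liver replicate 1 to 37393 in testis replicate 1. Liver replicate 1 stood apart, with a 95th percentile of its negative controls of 13.6 against 2.97 to 4.97 elsewhere, and the first GC-2 array differed from its 2 companions. Slide 1 held the first replicate of each of the 8 groups. Slide 2 held the remaining arrays of every tissue but heart, and slide 3 those of heart and the lines, so that lines and tissues other than heart met on slide 1 only. Probes for defining transcripts followed the tissue labels: Snap25 and Mobp were well above background on the 3 brain arrays only, Nrap on the 3 heart arrays only, Gm853 on the 3 kidney arrays only, Mup-ps12 on the 3 liver arrays only and 1700027A15Rik on the 3 testis arrays only, though several of these were picked by the study on these same samples. Other probes of the same lists were broader: Gap43, also a brain marker, was well above background on 14 arrays, among them all 9 arrays of the lines (F9 mean 5.16), Gm5532, a heart probe, on 8 arrays, 2 of them of brain and 2 of testis, and Mup-ps18, a liver probe, on 5. Zfp42, a marker of undifferentiated embryonal cells, was well above background on the 3 F9 arrays and on the 3 testis arrays. Stra8, which germ cells express as they enter meiosis, was well above background on the testis and F9 arrays and on none of the 6 GC arrays.

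Intronic lncRNAs were detected nearly everywhere. A probe counted as detected in a group if all 3 of its arrays carried the scanner's flag for a signal well above background, and 279 of the 287 members (97.2%) were detected in all 8 groups. In the 6 groups that the choice of members did not use, 280 (97.6%) were detected throughout. The count of detected members was 280 in liver, 283 for F9, 284 for GC-1 and GC-2 alike, 285 for kidney and testis alike, 286 for heart and 287 for brain. The fewest were detected in liver, whose replicate 1 had the highest background, and 281 members were detected in every group when that array was left out.

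This breadth was close to that of the other classes in the same lists. All 8 groups were reached by 890 of 957 intergenic probes (93.0%), 389 of 427 exonic sense probes (91.1%), 80 of 86 exonic antisense probes (93.0%) and 34 of 37 bidirectional probes (91.9%), against 22.3% of all 60804 probes. The lists hold only high levels, which is true of every class in them but not of all probes. Among members, 135 of the 137 pseudogenes not marked as transcribed (98.5%) and 123 of 125 members without a RefSeq match (98.4%) reached all groups, and 11 of 14 RefSeq lncRNA genes did. Of the 29 members from the brain list alone, 23 (79.3%) reached all groups. Of the 185 members without a shared run or a listed second target, 177 (95.7%) did so.

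**Figure D1:**
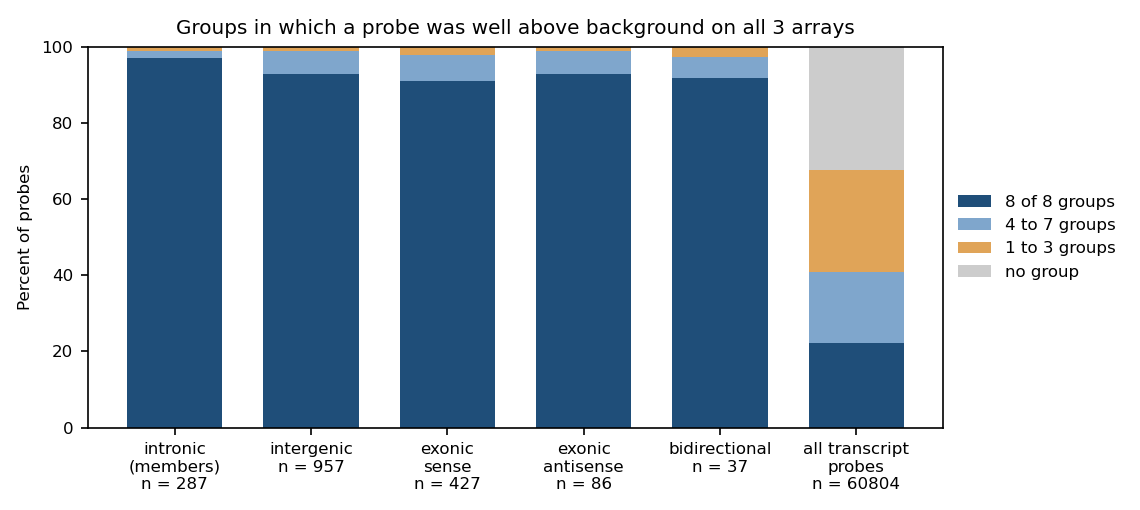
Share of probes (percent, vertical axis) by the number of groups in which the probe was detected, for the 287 intronic members, the other classes of the same lists and all 60804 transcript probes. The bar segments for all 8 groups stand at 97.2% for members, 91.1% to 93.0% for the other classes and 22.3% for all probes.

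Only 8 members missed a group. AK138667, Gm17138, Gm6024 and Peg13 were among the 5 that missed 1, and 4931430N09Rik, AK081729 and 9530034E10Rik were found in 2 or 3 groups. The last 3 were RefSeq lncRNA genes or unmatched transcripts from the brain list, all antisense to their host.

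4931430N09Rik, a spliced RefSeq lncRNA at chr6:118880157-118885543 (GRCm38, plus strand), lies antisense in Cacna1c, which encodes the pore of an L-type calcium channel of heart, muscle and nerve cells. Its log2 level was 3.97, 3.55 and 4.14 on the brain arrays and 0.63, 1.83 and 1.37 on the testis arrays. The other 18 arrays read between -5.51 and -3.05, none of them well above background. Brain was 6.1-fold over testis, and testis was at least 15.8-fold over heart and kidney and at least 5.93-fold over liver. Against the mean of these 3 tissues, testis was higher by 5.52 on the log2 scale (adjusted p = 1.64e-10, limma), a fitted value that is no bound since the 3 tissues lay at background. With another background correction it was 2.24, under 5-fold, and the call ended. The host's best known organ, the heart, gave -5.31, -4.58 and -4.44, none above background.

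AK081729, at chr14:70934044-70935821 on the minus strand, lies antisense in Gfra2, which encodes the receptor for the nerve growth factor neurturin. Its level was 4.85, 4.53 and 4.62 in brain and -1.50, -0.51 and -1.20 in heart, the only other tissue detected on all arrays. Brain was 53.3-fold over heart. The levels on 2 kidney arrays (-2.06 and -1.60) and 1 testis array (-4.02) were also well above background, while all liver, F9, GC-1 and GC-2 arrays were not.

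9530034E10Rik, at chr4:117975035-117993972 on the plus strand, is antisense to St3gal3, the gene of a sialyltransferase. Its brain levels were 5.32, 5.08 and 5.53. Kidney followed with -0.85, -0.93 and -1.48 and heart with -1.51, -2.24 and -1.31, so that brain was 84.2-fold over kidney. Liver lay at background on all 3 arrays. The GC-1 arrays gave 2 of 3 above background, at -2.09 and -2.13, and the F9 and GC-2 arrays none. Brain stood far above every other array for each of these 3 RNAs except 4931430N09Rik in testis.

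Peg13 is an imprinted RNA transcribed from the paternal copy, at chr15:72805599-72810324 on the minus strand within Trappc9. It read 7.42, 7.47 and 7.78 in brain, 5.84, 5.28 and 5.90 in heart and 3.93, 4.37 and 4.48 in kidney. It read 2.63, 2.56 and 2.54 in liver and 1.88, 1.90 and 1.92 in testis. The 5 tissues did not overlap in this order. Heart was higher than the mean of kidney, liver and testis by 2.76 (SE 0.19, adjusted p = 1.93e-08, limma). GC-1 (2.73, 3.00, 2.88) lay near liver, GC-2 (1.31, 3.25, 3.22) had 1 low array, and F9 (-3.97, -1.51, -1.91) was the lowest group, with the first array not above background.

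**Figure D2:**
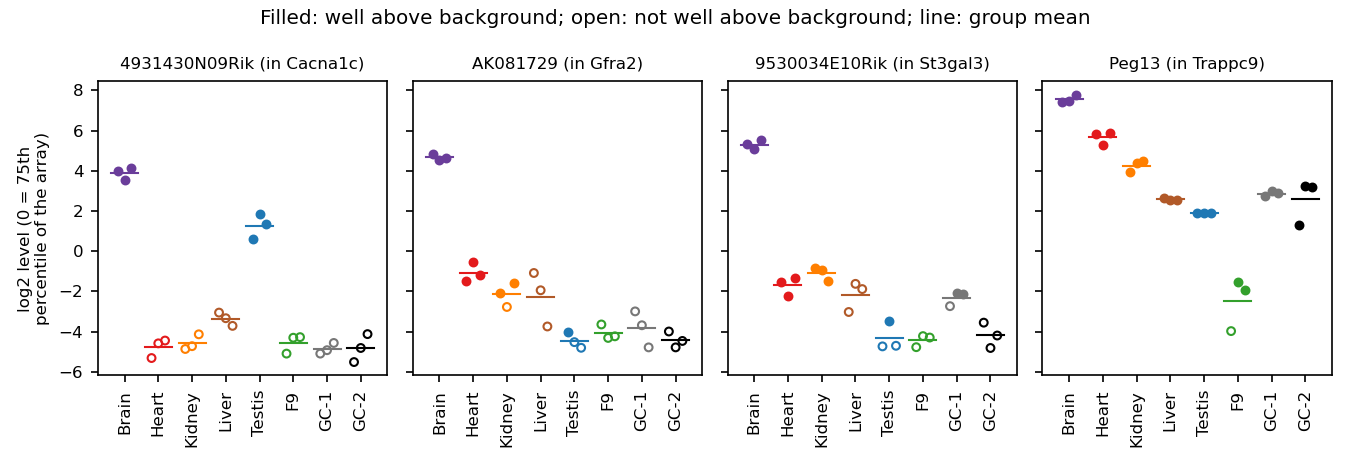
Log2 level (vertical axis, 0 is the 75th percentile of the array) on each of the 24 arrays for the 3 members detected in 3 or fewer groups and for Peg13, which missed F9. Filled circles are well above background, open circles are not, and lines are group means. Brain is the highest group in each panel, and testis is the second highest for 4931430N09Rik only.

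AK138667, in an intron of Map7, was likewise high in brain (5.26 ± 0.24) and lay between -2.07 and -0.43 in every other group. Its liver arrays gave 2 of 3 above background.

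The median level of the members was lowest in testis (4.78), followed by brain (5.72), liver (6.08), heart (6.22), kidney (6.45), GC-1 (7.12), GC-2 (7.24) and F9 (7.82). The median SD between the 3 arrays of a group was 0.22. Among the 8 groups, F9 held the highest mean for 183 members, a group that the lists had used. Among the 5 tissues, liver held the highest mean for 120 members, kidney for 73, heart for 61, brain for 22 and testis for 11. This order leans on the scaling, since the median liver difference of members moved from 0.66 to 0.10, -0.90 and -0.03 under other scalings and to -0.07 with another background correction.

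The levels varied among heart, kidney, liver and testis about as much as those of other broadly detected probes. The highest tissue mean exceeded the lowest by a median of 4.90-fold, against 4.98-fold for the 13551 probes detected on all 24 arrays. For all probes it was 10.2-fold, but 19624 of these were detected in no group. The range of an undetected probe is largely that of the lowest detected signals of the arrays, so this value is no measure of tissue variation. RefSeq lncRNA genes spanned a median of 9.61-fold and the 137 pseudogenes 4.36-fold. By the moderated F-test of limma with a fold of at least 5, 138 members (48.1%) varied among the 4 tissues. The background was 67.9% of all probes, and 6736 of the probes detected on all arrays (49.7%) were called. The test took levels below detection as they stood, so the 67.9% can include probes without a detected signal. Mobp, above background in none of these 4 tissues, read -3.29 in liver and -6.22 in testis (means). With the other scalings between arrays the members called fell to 75 (26.1%, background 39.8%), 91 (31.7%, background 42.2%) and 80 (27.9%, background 39.6%). With another background correction 84 were called (29.3%, background 18.8%), so that the members then stood above the background and not below it.

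The widest ranges over the 6 groups that the choice had not used belonged, among others, to Gm6024, Gm17138, Gm15654, B930095G15Rik, AK206280, Gm13460, Gm7809, Gm12736, Gm19898, Gm6525 and Gm17022, from at least 242-fold down to 63.4-fold. Many were high in the cultured lines, low in testis or high in heart, and these patterns overlapped: Gm7809 was called in all 3 ways. In other directions, Gm17138, Gm6024 and AK206280 were called lower in liver, and Gm19898 and Gm6024 higher in testis.

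**Figure D3:**
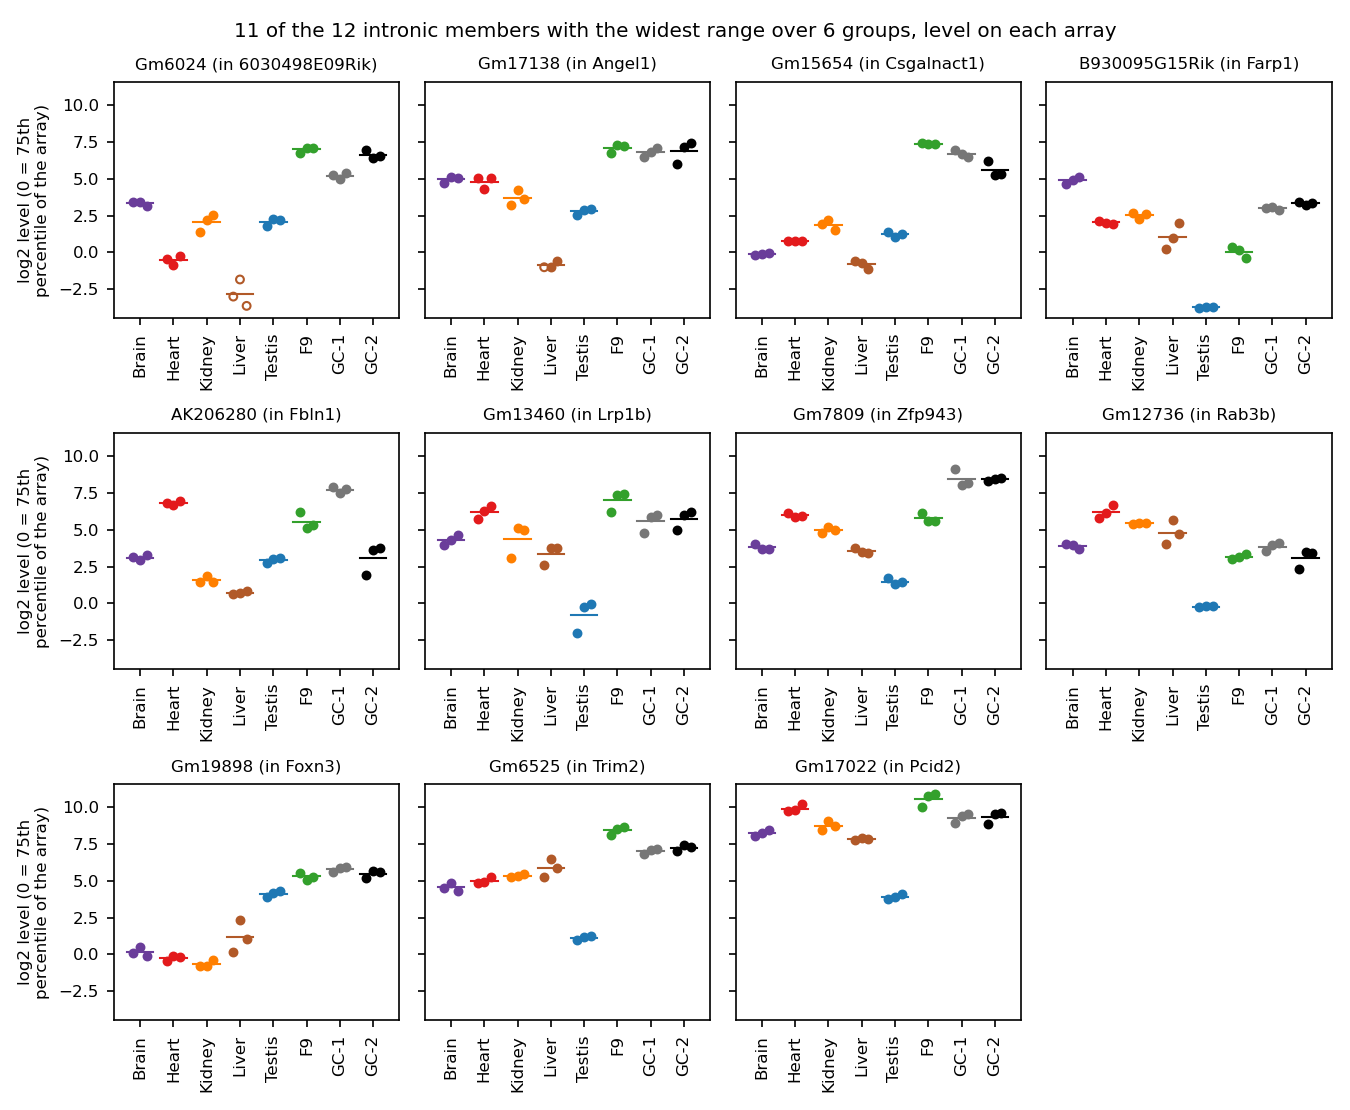
Log2 level (vertical axis, 0 is the 75th percentile of the array) on every array for 11 of the 12 members with the widest range over heart, kidney, liver, testis, GC-1 and GC-2, with the host gene in the panel title. Filled circles are well above background, open circles are not, and lines are group means. Gm6024 has 3 open circles in liver and Gm17138 has 1, and the lowest group is kidney in the panel of Gm19898 and liver or testis in the other panels.

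Gm6024, a pseudogene on chromosome X antisense in 6030498E09Rik, read 5.23, 4.99 and 5.37 in GC-1 and 6.93, 6.37 and 6.57 in GC-2. Kidney gave 1.38, 2.17 and 2.55 and testis 1.76, 2.24 and 2.19, whereas heart gave -0.44, -0.88 and -0.27 and liver was not above background on any array. The GC lines exceeded the mean of the 4 tissues by 5.73 (SE 0.22, adjusted p = 3.61e-15, limma), a fitted value that is no bound, and GC-2 was at least 242-fold over liver. The 6 GC arrays lay above all 12 arrays of these tissues.

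Gm15654, antisense in Csgalnact1 at chr8:68620137-68620437, read 6.93, 6.65 and 6.45 in GC-1 and 6.19, 5.25 and 5.32 in GC-2. No array of the 4 tissues exceeded 2.20, the second kidney array. The GC lines were higher by 5.37 (SE 0.15, adjusted p = 4.85e-17, limma).

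Gm17138, antisense in Angel1, was high in GC-1 (6.48, 6.82, 7.09), GC-2 (6.0, 7.12, 7.41) and heart (5.03, 4.27, 5.05) and low in liver (-1.01, -1.02, -0.57), where replicate 1 was not above background. Liver minus the mean of the other 3 tissues was -4.61 (SE 0.25, adjusted p = 1.08e-09, limma). The 3 liver arrays lay below the other 21.

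Gm19898, a pseudogene antisense in the forkhead gene Foxn3, was high in testis as well as in the lines. Testis read 3.90, 4.14 and 4.28, GC-1 5.60, 5.84 and 5.95, and GC-2 5.15, 5.64 and 5.57. Heart and kidney stayed between -0.79 and -0.14, and liver spread from 0.15 to 2.33. Testis exceeded the other 3 tissues by 4.01 (SE 0.33, adjusted p = 4.09e-08, limma).

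Gm7809, antisense in the zinc finger gene Zfp943, read 9.09, 8.02 and 8.14 in GC-1 and 8.28, 8.47 and 8.49 in GC-2. Of the 4 tissues heart came next at 6.15, 5.83 and 5.96, and testis was last at 1.70, 1.30 and 1.42. The GC lines exceeded the 4 tissues by 4.42 (SE 0.16, adjusted p = 1.38e-15, limma).

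Among members low in testis, B930095G15Rik is a RefSeq lncRNA at chr14:121248705-121251497 in the direction of its host Farp1, the gene of a guanine nucleotide exchange factor. Its testis arrays read -3.75, -3.73 and -3.71, all above background. Heart gave 2.15, 1.98 and 1.95, kidney 2.68, 2.24 and 2.62, and liver 0.22, 0.95 and 2.01. Testis was lower by -5.60 (SE 0.28, adjusted p = 1.34e-10, limma) and remained called under every limma alternative tried, between -5.74 and -3.53.

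Gm12736 (antisense in Rab3b, the gene of a GTPase of secretory vesicles) and Gm13460 (antisense in Lrp1b, a lipoprotein receptor family member) were also lowest in testis, but with heart above kidney on all arrays. Gm12736 gave -0.28, -0.15 and -0.21 in testis against 5.81, 6.16 and 6.69 in heart, a testis difference of -5.69 (adjusted p = 1.01e-10, limma). Gm13460 gave -1.99, -0.27 and -0.02 in testis against 5.73, 6.24 and 6.58 in heart, a difference of -5.39 (adjusted p = 6.38e-08, limma). Testis lay below each of the other groups for both.

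Gm6525 (antisense in Trim2) and Gm17022 (antisense in Pcid2) were of this kind too, with testis differences of -4.27 and -4.91. Each stayed called under every limma alternative tried. The 9 arrays of heart, kidney and liver ran from 4.86 to 6.44 for Gm6525 and from 7.77 to 10.19 for Gm17022, all above the testis arrays. Gm17022 shared a 20-base run with several intergenic probes.

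AK206280, a 274-base transcript at chr15:85251611-85251885 in the direction of Fbln1, the gene of the matrix protein fibulin-1, had the largest heart difference of all members. It read 6.80, 6.69 and 6.94 in heart against 1.48, 1.87 and 1.45 in kidney, 0.63, 0.72 and 0.86 in liver and 2.71, 3.02 and 3.07 in testis. Heart exceeded the other 3 tissues by 5.06 (SE 0.18, adjusted p = 1.72e-11, limma), 5.20 on slide 1 alone. Since the transcript and its host share a strand, host RNA on this probe was not tested.

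The opposite extreme was a single family. The 5 members with the narrowest range over the same 6 groups, Gm12950 (1.51-fold), Gm17136 (1.54-fold), Gm15152 (1.57-fold), Gm3835 (1.63-fold) and Gm15763 (1.65-fold), were the 5 probes with the common run AATTATGCCAAAAGA printed above. They are annotated in introns on 5 chromosomes (GRCm38): Gm12950 at chr4:116448787-116449204 antisense in Mast2, Gm17136 at chr7:126176123-126176534 antisense in Xpo6, Gm15152 at chrX:151005869-151006528 antisense in Gnl3l, Gm3835 at chr8:72429549-72429952 in the direction of Calr3 and Gm15763 at chr6:148261149-148261552 antisense in Tmtc1. Gm12950 read 7.08, 6.81 and 7.10 in heart, 7.48, 7.41 and 7.53 in kidney, 6.89, 7.33 and 6.74 in liver and 7.11, 6.77 and 6.86 in testis. GC-1 gave 7.48, 7.32 and 7.37 and GC-2 gave 7.51, 7.55 and 7.48, so all of these 18 arrays lay between 6.74 and 7.55. Over the 4 tissues the adjusted p of the limma F-test ran from 0.0361 for Gm3835 to 0.325 for Gm17136, with no fold near 5. This flatness belongs to the scaling used: with arrays scaled to the median of their detected probes the range among tissues reached 2.22 to 2.41 on the log2 scale, and Gm15152 and Gm17136 were then called.

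**Figure D4:**
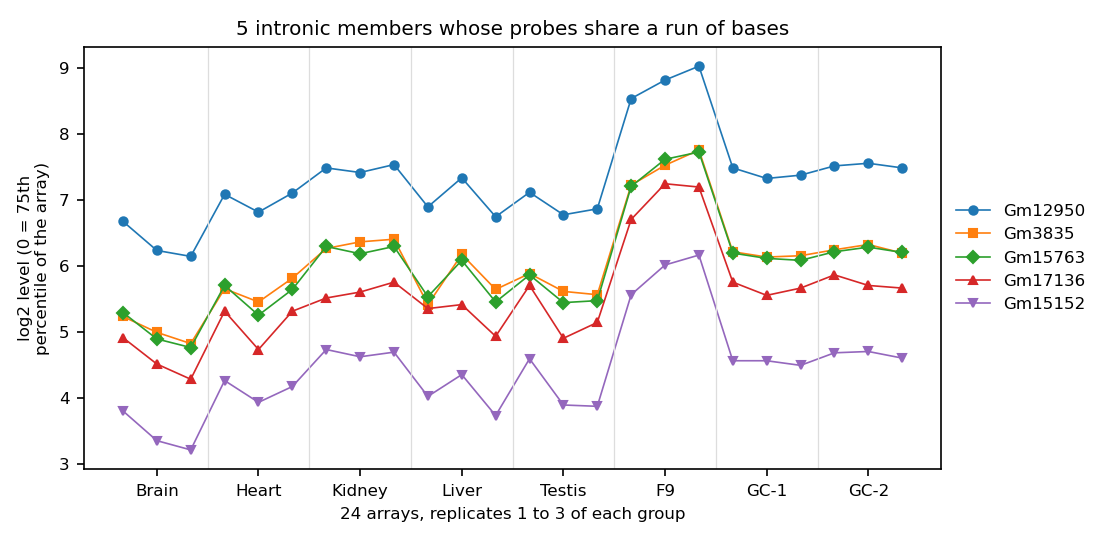
Log2 level (vertical axis, 0 is the 75th percentile of the array) on the 24 arrays, replicates 1 to 3 in each group, for the 5 members whose probes share the run AATTATGCCAAAAGA. The 5 lines run in parallel, F9 is the highest group and brain the lowest, and the other 6 groups lie within 1.51-fold to 1.65-fold of each other.

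Heart against the mean of kidney, liver and testis gave 24 members higher (8.36%, background 4.95%) and 3 lower (background 6.08%) at an adjusted p of at most 0.05 and a fold of at least 5. In other classes of the same lists, 9.4% of intergenic, 8.11% of bidirectional, 4.65% of exonic antisense and 3.98% of exonic sense probes were higher. The methods' t-test with the same adjustment called 5 higher (1.74%, background 2.5%) and 0 lower (background 0.375%), so the excess over the background was not seen with that test. Here and below, that test pools the arrays of the tissues compared against as 1 group. Differences among the pooled tissues then widen its spread, so its lower counts are no separate evidence about members. After AK206280 and Gm13460 (3.86), the largest were Gm5421 at 3.09, a pseudogene in Raet1a, Gm17022 at 3.07, Gm15349 at 3.00, in Mcf2l, and Gm4660 at 2.95, in Epha6. The 2 transcripts antisense in Slc3a1, the kidney gene of a cystine transporter, were among them: AK019367 (chr17:85062309-85062520) rose by 2.50 and AK013363 (chr17:85062311-85063288) by 2.59. They overlap each other and ran in parallel, with brain means of 8.17 ± 0.16 and 7.05 ± 0.21, heart means of 6.18 ± 0.46 and 5.10 ± 0.51 and kidney means of 3.96 ± 0.27 and 2.80 ± 0.31 (SD, n = 3). The kidney, where the host is best known, stood below brain and heart for both. The 3 members lower in heart were 4931430N09Rik (-2.56), Gm12846 (-2.47) and Gm15470 (-2.34). For 4931430N09Rik heart, kidney and liver all lay at background and testis did not, so its value describes no heart level, and the call ended without heart replicate 1 (-2.29) and with another background correction (-1.0). Gm15470 stayed called in 14 of 23 limma alternatives, between -2.51 and -2.20, and its call ended without heart replicate 2, kidney replicate 2, liver replicate 1, testis replicate 1 or testis replicate 3.

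AK008913, antisense in Gc, the liver gene of vitamin D-binding protein, was called higher in heart by 2.93 (SE 0.53, adjusted p = 0.000318, limma). Its heart arrays scattered over 6.41, 8.87 and 5.09, while liver gave 4.29, 3.95 and 4.95. Heart was above liver on all arrays, but the size rested on heart replicate 2, without which it was 1.89 and no longer 5-fold, and with slide as a block the adjusted p was 0.0747 by limma.

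Kidney gave 7 members higher (background 4.11%) and 0 lower (background 5.32%), and 11 were lower at an unadjusted p under 0.05 by limma, 0 of them by 5-fold and 0 by the methods' t-test. That test called 3 higher (background 3.23%) and, after Benjamini-Hochberg adjustment, 2 (background 1.5%). The largest were Gm12846 at 4.85 (SE 0.32, adjusted p = 1.41e-08, limma) and Gm15470 at 4.64 (SE 0.28, adjusted p = 4.6e-09, limma), named here after their values were seen. Gm12846, a pseudogene at chr4:98664365-98666137 in the polarity gene Inadl, read 8.52, 8.50 and 6.87 in kidney, 2.76, 2.34 and 2.33 in heart, 3.34, 2.80 and 2.40 in liver and 4.22, 3.85 and 4.02 in testis. Gm15470, a pseudogene at chr7:41490350-41491721 antisense in AW146154, read 7.31, 8.08 and 6.37 in kidney, 2.12, 1.89 and 2.06 in heart, 2.53, 2.32 and 1.99 in liver and 3.67, 3.32 and 3.65 in testis. The order of the tissues was the same for both, kidney over testis over liver over heart, although their probes had no more than 6 bases in a row in common. Both remained called under every limma alternative tried. The other 5 higher in kidney were AK156792 (2.85), Gm12917 (2.79), B930095G15Rik (2.73), Gm15502 (2.47) and Gm6024 (2.46). The calls of AK156792 and Gm12917 stood under all 23 limma alternatives. Gm15502 ended without kidney replicate 2 (2.27), with the 75th percentile over probes detected on all arrays (2.02) and with quantile normalization (2.28). B930095G15Rik ended with that percentile (2.27) and with another background correction (2.01). Gm6024, whose liver arrays lay at background, ended without kidney replicate 3 (2.20), with that percentile (2.01) and with the other background correction (1.11).

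Liver gave 4 members higher (background 7.80%) and 6 lower (background 2.93%). The lower count was 13 (4.53%, background 5.3%) with the 75th percentile over probes detected on all arrays, 22 (7.67%, background 14.1%) with the median of detected probes, 7 (2.44%, background 7.11%) with quantile normalization and 9 (3.14%, background 1.03%) with another background correction. AK016356, antisense in Dscr3, was the highest at 4.37 (SE 0.28, adjusted p = 7.41e-09, limma), with 10.14, 10.32 and 11.10 in liver against 4.53 to 7.41 in the other 3 tissues, and the call stood under every limma alternative tried. Gm12828 (2.45), Gm22388 (2.37) and AK008866 (2.34) were higher too, but each fell under 5-fold with every other scaling or background correction tried. Gm22388 lies antisense in Mog, the gene of a myelin protein, and read 10.37, 10.03 and 9.84 in liver against 7.58, 7.50 and 7.46 in brain.

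The members lower in liver included Gm17138 (-4.61), Gm6024 (-4.01), Gm6644 (-3.41), Gm17228 (-3.40) and AK206280 (-3.05). The value of Gm6024 is no bound, since its liver arrays were not above background, and with another background correction it was -1.65 and no longer called. Gm17228 read 1.21, 0.69 and 1.05 in liver, and 3.63, 3.21 and 3.91 in heart, 3.91, 5.36 and 5.22 in kidney and 4.36, 4.73 and 5.07 in testis. Its difference of -3.40 had an SE of 0.30 (adjusted p = 2.82e-07, limma). The Actg1 probe with which it shares 26 bases differed in liver by -0.45 (SE 0.25, adjusted p = 0.124, limma). In the GC lines both were higher than in the 4 tissues, by 2.90 for Gm17228 and 2.43 for Actg1. The 2 probes thus stood apart in liver and together in the lines, and the difference between them was not tested.

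Testis gave 6 members higher (background 10.7%) and 78 lower (27.2%, background 35.0%). The background includes probes detected in no group. Of the probes detected on all 24 arrays, 3.68% were higher and 25.9% lower, so the share of members lower was near theirs. The arrays of testis lay below all 9 arrays of heart, kidney and liver for 213 members (74.2%, background 52.2%), and for 59.5% of probes detected on all arrays. Other classes of the same lists were near the members, at 73.0% of intergenic, 73.0% of bidirectional, 70.9% of exonic antisense and 64.2% of exonic sense probes. The median difference of members was -1.73, the same as over all probes and lower than the -1.49 of probes detected on all arrays. It was -1.61 within slide 1 and -1.90 within slide 2, where kidney and liver were the other 2 tissues compared. This direction leans on the scaling. The median of members moved to -0.54 with the 75th percentile taken over probes detected on all arrays, to -0.20 with the median of detected probes, to -0.93 with quantile normalization and to -1.01 with another background correction, and the count of members lower fell to 29, 24, 42 and 37. Against the background the order turned, since these shares of 10.1%, 8.36%, 14.6% and 12.9% stood beside 5.82%, 4.31%, 10.1% and 4.89% of all probes. Relative to the probes detected on all arrays, members were lower by -0.24 under the scalings that shift whole arrays, by -0.09 with the other background correction, and higher by 0.26 with quantile normalization.

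The 6 members higher in testis included 4931430N09Rik (5.52), Gm19898 (4.01), Gm15989 (2.85), Gm6024 (2.50) and Gm13863 (2.40). With another background correction Gm6024 was at 1.67 and no longer called. Gm15989, in the direction of Ttc28, read 5.56, 5.40 and 5.55 in testis and 3.96, 4.35 and 3.34 in kidney, the tissue closest to it. Gm13863, antisense in Agbl3, read 8.10, 7.29 and 7.30 in testis and at most 5.62 in heart, kidney and liver, and without testis replicate 1 its difference was 2.14, under 5-fold. The Hspe1 copies were among the lower members, at -4.03 for Hspe1-ps6 and -4.11 for Hspe1-ps3, with testis means of 2.96 ± 0.10 and 1.25 ± 0.58 and kidney means of 7.55 ± 0.18 and 6.03 ± 0.41.

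Members were higher in GC-1 and GC-2 than in the mean of heart, kidney, liver and testis by a median of 1.39, against 0.40 for probes detected on all arrays and -0.14 for all probes. The difference was above 0 for 242 members (84.3%), 43 were called higher (15%, background 4.80%) and 0 lower (background 6.55%). By limma 30 were lower at an unadjusted p under 0.05, 0 of them by 5-fold, and the methods' t-test called 0, though 4 were called lower with the 75th percentile over probes detected on all arrays. The 6 GC arrays lay above all 12 tissue arrays for 116 members (40.4%, background 7.10%), and for 17.4% of probes detected on all arrays. Within slide 1 the median was 1.33, and on slide 3, where heart was the only one of the 4 tissues, it was 1.17 against heart. The count of calls moved with the scaling, to 16 (5.57%, background 2.5%) with the 75th percentile over probes detected on all arrays and 25 (8.71%, background 4.92%) with quantile normalization. The median of members stood 0.99 above that of probes detected on all arrays, a gap that scalings shifting whole arrays cannot change. The gap was 0.76 with quantile normalization and 1.1 with another background correction.

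Members in the F9 list were picked for a high level in another cultured line, so the shares are given by list. Of the 43 members from the F9 list only, 18 were called higher in the GC lines. Of the 215 in both lists 22 were called, and of the 29 from the brain list only, 3. The median difference of all 29 was -0.41. By type, 34 of 146 pseudogenes (23.3%), 1 of 14 RefSeq lncRNA genes and 8 of 125 unmatched members (6.4%) were called. In other classes of the lists, 103 of 957 intergenic (10.8%), 36 of 427 exonic sense (8.43%) and 2 of 86 exonic antisense probes were called. The share of a signal that came from parent transcripts was not tested. Gm17060, a pseudogene antisense in the testis kinase gene Stk31, was higher by 3.12 in the lines and had means of 6.21 ± 0.23 in testis and 6.32 ± 0.17 in heart. Gm12583, a pseudogene in Adad1, a gene of developing sperm, was higher by 3.42, with 1.89 ± 0.41 in testis and 5.55 ± 0.22 in GC-1.

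**Figure D5:**
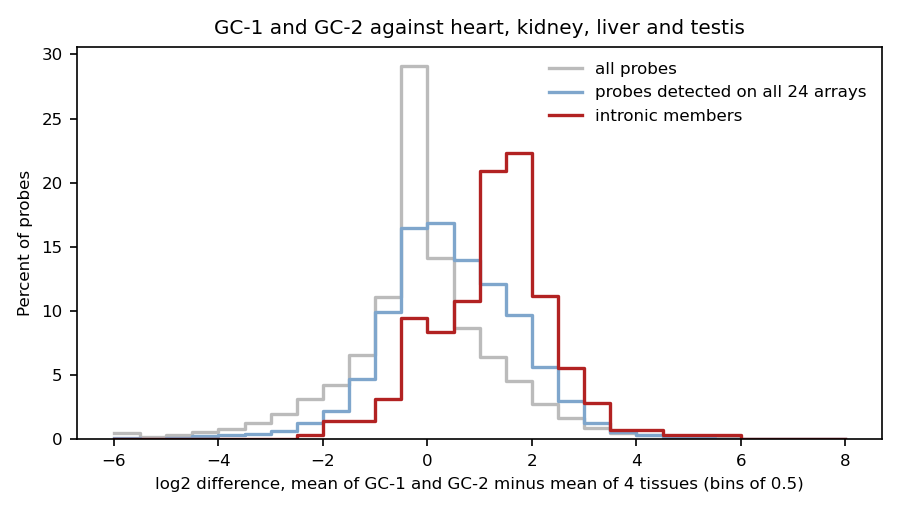
Distribution of the log2 difference between the mean of GC-1 and GC-2 and the mean of heart, kidney, liver and testis (horizontal axis, bins of 0.5) as percent of probes (vertical axis) for members, for probes detected on all 24 arrays and for all probes. The median is 1.39 for members, 0.40 for probes detected on all arrays and -0.14 for all probes.

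GC-2 against GC-1 gave 0 members higher (background 1.26%) and 1 lower (background 2.13%). By limma 24 were higher at an unadjusted p under 0.05, 0 of them by 5-fold, and the methods' t-test called 0. Without a fold threshold, by limma, 8 were higher (2.79%, background 5.17%) and 11 lower (3.83%, background 6.02%). The member called lower was AK206280, at 7.91, 7.48 and 7.73 in GC-1 and 1.90, 3.59 and 3.73 in GC-2, a difference of -4.63 (adjusted p = 3.68e-09, limma).

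The 11 members named as copies of ribosomal protein genes were detected on all 24 arrays, with ranges from 5.27-fold for Fau-ps1 to 19.4-fold for Rpl7a-ps9 over the 6 groups. Each was higher in the GC lines than in the 4 tissues, by 1.04 for Fau-ps1 up to 2.34 for Rpl7a-ps9, and in each of the scalings tried, but only Rpl7a-ps9 reached 5-fold. Fau-ps1, a copy of the gene that encodes ribosomal protein S30 joined to a ubiquitin-like protein, read 9.30, 9.45 and 9.60 in heart, 10.48, 11.07 and 10.17 in liver and 8.53, 8.60 and 8.53 in testis. It read 10.84, 10.98 and 11.03 in GC-1. The lines overlapped liver but not heart or testis. Rpl7a-ps9 had 1 discordant array, liver replicate 1 at -0.38 against 4.85 and 4.40, and without that array its GC difference was 1.92. The testis difference of the 11, from -2.40 for Rpl7a-ps9 to -0.53 for Rpl29-ps1, turned positive under other scalings for Fau-ps1, Rpl26-ps4, Rpl29-ps1, Rpl31-ps5 and Rps12-ps26, among others.

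The probe annotated antisense in Jarid2, the gene of a Polycomb-associated protein, shared 52 bases with the intergenic probe AK155692. Jarid2 read 13.35, 13.83 and 13.43 in liver, 12.26, 12.61 and 12.91 in heart and 10.46, 10.64 and 10.58 in testis. The liver difference was 1.67 for Jarid2 and 1.64 for AK155692, and the testis difference was -2.30 and -2.28. The 2 probes could not be told apart by these values. Which other RNAs these bases match was not tested, so the RNA behind these high levels is not settled.

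The 4 XLOC_011759 transcripts, antisense over Slc22a28, a gene of the organic anion transporter family, are isoforms of 1 locus (chr19:7960698-8257456 for TCONS_00015975) and are not independent. The transcript XLOC_011759 (TCONS_00015975) read 5.16, 5.88 and 5.24 in liver, 4.34, 4.88 and 4.92 in kidney, 2.37, 2.80 and 2.71 in heart and 2.69, 2.89 and 2.96 in testis. Liver and kidney lay above heart and testis without overlap. The liver difference ran from 1.94 to 2.03 over the 4 transcripts, under 5-fold.

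Some hosts were listed under 1 tissue from general knowledge, though not all act there alone. Cacna1c of the heart list also acts in muscle and nerve cells. For the listed hosts, the tissue in which the intronic member was highest was counted, beside the same count over all 287 members. Of 35 members in hosts used in brain, such as Reln, Erbb4 and Gabrb1, 2 were highest in brain among the 5 tissues (22 of 287) and 16 in liver (120 of 287). Of 8 members in hosts of heart function, 0 were highest in heart (61 of 287), and of 2 in the kidney host Slc3a1, 0 were highest in kidney (73 of 287). Of 9 members in hosts of germ cells, Gm13863 alone was highest in testis (11 of 287). With so few members per list these shares were not tested against each other. Of 6 members in liver hosts, 3 were highest in liver (120 of 287), among them Gm13614 in the bile salt pump gene Abcb11 and Gm8522 in F8, at 7.54 ± 0.85 and 4.22 ± 0.08 (SD, n = 3). The host lists were written from the host names with earlier results known. Detection in all 8 groups held for 34 of the 35 members in brain hosts and for all 9 in germ cell hosts.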

How the data were processed

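Cy3-labelled RNA of 24 samples was hybridized to Arraystar mouse lncRNA arrays with 60804 transcript probes of 60 bases. RNA was extracted with Trizol according to the labels and with a column kit according to the study's methods. Per the file headers, the deposited intensity values are the processed signal of Feature Extraction 11.5.1.1, background-subtracted and not scaled between arrays, and the deposited matrix held the same intensities (largest relative difference 0.000228). Columns of fold changes and p-values in the study's lists were not used.

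Each array was put on the log2 scale and centred on its own 75th percentile. Detection used the scanner's flag for a signal well above background. Fits used limma 3.58.1 in R 4.3.3 (lmFit, eBayes; Python 3.11.15 for the rest), with Benjamini-Hochberg adjustment over all 60804 probes, and a call needed an adjusted p of at most 0.05 and a fold of at least 5. Tissue contrasts came from the 15 tissue arrays, line contrasts from all 24. A background share is that of all 60804 probes, 19624 of which were detected in no group. A group below background was set to no less than the lowest signal above it, which gives the folds written as "at least". On simulated data for the testis contrast, 195 of 200 probes changed by 3.5 on the log2 scale were recovered, with 1 false call. The simulated arrays had no other difference between groups, no slide effect and no shift in scaling, so errors of those kinds were not measured. Groups followed the labels. Host spans matched RefSeq for GRCm38 within 1000 bases for 269 of 270 members. The number of arrays limits the precision, and no spot was saturated.

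The members and lists were chosen with earlier results of these data known. Genes named are the 12 members of widest and the 5 of narrowest range over the 6 groups not used in the choice, members detected in 3 or fewer groups, ribosomal pseudogenes, Peg13, Jarid2, the XLOC_011759 transcripts, host-list members with 5-fold over the next tissue, and others said to be named after their values were seen or listed as called in a comparison. Some members are counted but not reported here by name. Alternatives were the scaling, the background correction (normexp with offset 50 on the median signal, as no mean signal column was given), the detection flag, the filter, the test, slide and replicate number as blocks, and leaving out each array.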

Additional observations from a re-analysis of the deposited data

Results flagged for a closer look

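AK206280, in the direction of Fbln1, was the 1 member called at 5-fold or more between the GC lines. It was lower in GC-2 than in GC-1 by -4.63 on the log2 scale (adjusted p = 3.68e-09, limma), with 7.91, 7.48 and 7.73 in GC-1 and 1.90, 3.59 and 3.73 in GC-2, and the lines stood on opposite sides of its heart level. The difference was -6.01 on slide 1, which held the first GC-2 array, and -3.95 on slide 3. It stayed called under all 32 limma alternatives, between -4.96 and -3.95.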

How the results depend on the processing

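Counts of members depended on the scaling between arrays. With the 75th percentile over probes detected on all 24 arrays, 4 members were higher and 3 lower in kidney, 1 higher and 13 lower in liver, 11 higher and 29 lower in testis, 16 higher and 4 lower in the GC lines, and 75 varied among the 4 tissues. With the median of detected probes, 2 were lower in kidney, 1 higher and 22 lower in liver, 15 higher and 24 lower in testis, and 91 varied. With quantile normalization, 1 was lower in kidney, 1 higher in liver, 10 higher and 42 lower in testis, 25 higher and 1 lower in the GC lines, and 80 varied. With normexp background correction, 1 was lower in heart, 1 higher in liver and 37 lower in testis, and 84 varied. The cause was not tested. Without a fold threshold, 89 were higher and 28 lower in heart (background 22.4% and 19.8%), 167 and 7 in kidney (18.7% and 19.1%), 162 and 29 in liver (55.3% and 15.4%), 17 and 239 in testis (18.9% and 68%), 230 and 26 in the GC lines (25.2% and 28.1%) and 8 and 11 in GC-2 against GC-1 (5.17% and 6.02%), and 266 varied (93.5%). The members' shares were 31% and 9.76%, 58.2% and 2.44%, 56.4% and 10.1%, 5.92% and 83.3%, 80.1% and 9.06%, 2.79% and 3.83%, and 92.7%, in the same order. The methods' t-test called 0 lower in heart and 3 higher in kidney, and after Benjamini-Hochberg adjustment 5 higher and 0 lower in heart and 2 higher in kidney.

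The testis difference turned positive with the median scaling for Fau-ps1 (0.03), Rpl26-ps4 (0.41), Rpl29-ps1 (1.01), Rpl31-ps5 (0.04), XLOC_011759 (TCONS_00015972) (0.16), XLOC_011759 (TCONS_00015975) (0.13), XLOC_011759 (TCONS_00015976) (0.10) and XLOC_011759 (TCONS_00015977) (0.13). It did so with quantile normalization for Fau-ps1 (0.41), Rpl29-ps1 (0.12) and Rps12-ps26 (0.04), with the 75th percentile over common probes for Rpl26-ps4 (0.07) and Rpl29-ps1 (0.67), and with normexp for Rpl29-ps1 (0.25). The GC difference of Jarid2 was 0.04 with quantile normalization.

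Leaving out 1 array at a time gave 22 to 24 members higher and 2 to 3 lower in heart, 6 to 9 higher and 0 to 2 lower in kidney, 3 to 4 and 6 to 7 in liver, 5 to 6 and 71 to 84 in testis, 39 to 45 higher in the GC lines, and 128 to 149 that varied. Members lower in kidney appeared without heart replicate 1, kidney replicate 3, liver replicate 1, liver replicate 3 or testis replicate 1. Without all replicate 1 arrays, a check added once values were known, 1 was lower in kidney, 2 higher in liver and 2 lower in GC-2 than in GC-1. With slide as a block, 1 was lower in kidney, and 37 were higher in the GC lines. With the replicate number as a block the counts equalled those without it (24 higher in heart, 78 lower in testis, 43 higher in the GC lines), and no call count changed. Deviations of arrays with the same number correlated at a median of 0.248, 0.119 and 0.113, against -0.123 for different numbers. Single pairs of the same number went down to -0.262, and the labels tie the numbers to no shared animal or day, so the numbers were not taken to pair the samples.

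Of the 185 members without a shared run or a listed second target, a restriction also added once values were known, 177 were detected in all 8 groups and 89 varied. Breadth ran from 273 with a common threshold to 283 with the flag for a positive and significant signal. A match of probes to all transcripts was not run, as no transcript sequences were used here. Of 2437 values recomputed for single genes, 2322 kept direction and side of the threshold, 94 lost the call, 6 gained it and 15 changed sign. The t-test was not among these single-gene alternatives. A probe not well above background has only a bound, as Gm6024 has in liver.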

Other observations

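Short words recurred among member probes beyond the sets printed above. The 12 bases GTCTGAAGACAG occurred in 5 member probes, among them AK142162, Gm10631 and AK132535, and in 18 other annotated probes. The 12 bases AATCTCTTAAGG occurred in 5 member probes and in 0 others.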
